A study of Mus musculus with 4 samples.

Results

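Collagen chain genes were examined in 4T1, a cell line from a mouse mammary carcinoma, with and without CD44v8-10, a variant form of the adhesion receptor CD44 made by alternative splicing. The array annotation held 41 genes named as collagen chains apart from Col17a1, out of 18193 genes with a symbol of their own, and each gene was read from its probe set with the highest mean over the arrays. By the type number in the symbol, 11 encode fibrillar collagens, 8 collagens of basement membranes and 22 other collagens. The 4 one-colour Affymetrix arrays carried total RNA from 2 samples labelled CD44v8-10-positive and 2 labelled CD44v8-10-negative. Cells of both groups grew in RPMI medium with bovine serum, were held in normoxia and were picked by hand under a dissecting scope. The labels do not say how CD44v8-10 status was determined, and nothing in the labels says that samples of one group came from separate cultures. Each p-value therefore rests on the spread among these 4 samples alone, which may be technical.

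Collagens are secreted as trimers of alpha chains wound into a triple helix of repeated glycine triplets. Fibrillar collagens such as types I, III and V are trimmed outside the cell and pack into banded fibrils, mostly in connective tissue. Type IV collagen forms the network of basement membranes under epithelia, which is built around trimers of the products of Col4a1 and Col4a2. Other types anchor, link or decorate these structures, among them the anchoring fibrils of type VII and the short network collagen of type VIII.

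No collagen gene was called different between CD44v8-10-positive and CD44v8-10-negative cells. Of the 41 genes, 19 had a probe set above the filter on dim signals, and none of these passed the threshold of 0.05 on p-values that limma gave and that were adjusted by Benjamini-Hochberg over 11956 genes (0 collagens, beside 0.0753% of all genes tested). At an unadjusted p under 0.05 limma had 2 of the 19, beside 4.45% of all genes: Col6a2 was higher in the positive cells, as were 2.68% of all genes at that threshold, and Col5a1 lower, as were 1.76%. The lowest limma adjusted p of any collagen was 0.985. Log2 differences, given throughout as positive minus negative on the scale of log2(normalized signal + 16), lay above 0 in 14 and below 0 in 5 of the 19, or in 11 and 8 with no scaling between arrays, a setting that moved the median of all genes from 0.03 to -0.15. Their median was 0.20, with quartiles of -0.02 and 0.36, beside a median of 0.03 and quartiles of -0.15 and 0.20 over all genes tested. Both groups stood apart without overlap in 8 of the 19, which is 42.1%, beside 32.3% of all genes; the positive cells were the higher group in 4 of the 19 and the lower in 4, beside 18.5% and 13.8% of all genes.

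**Figure D1:**
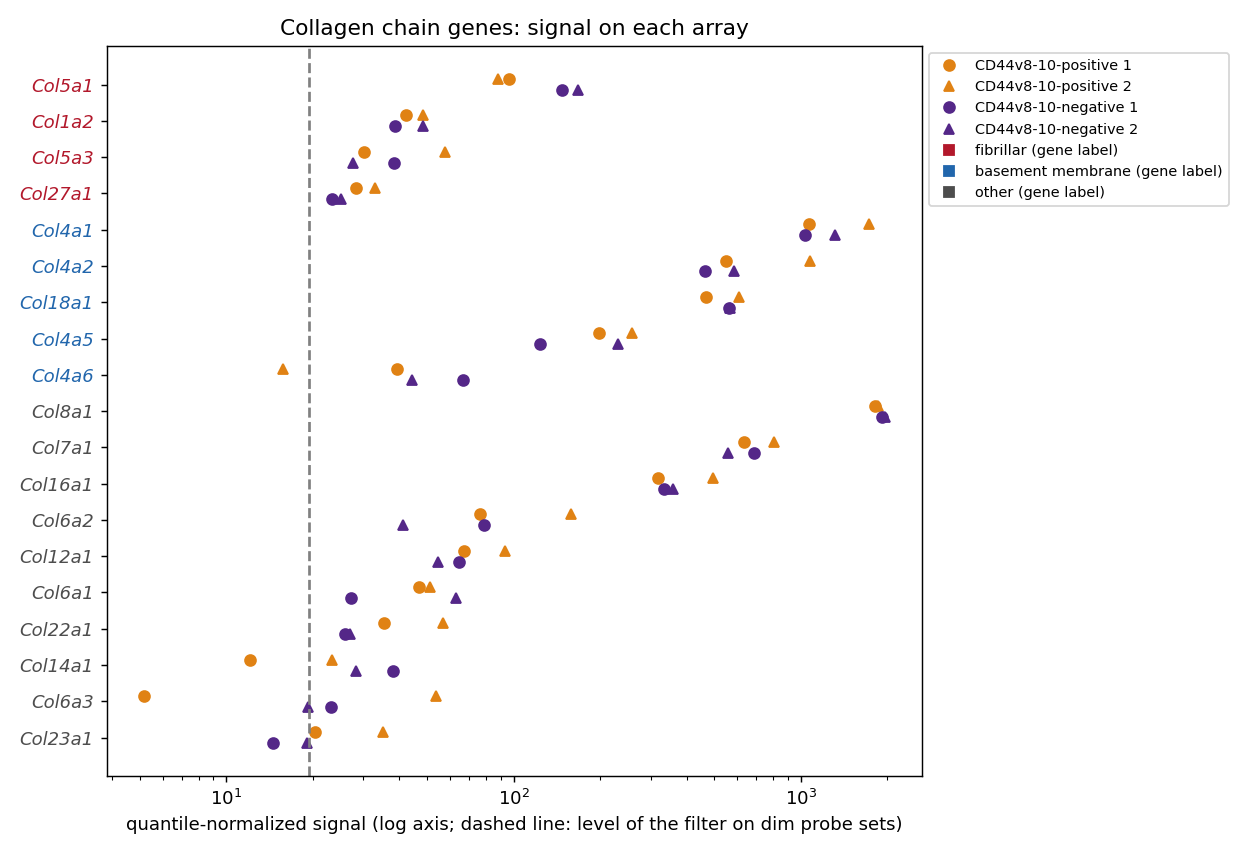
Quantile-normalized signal (log axis) of the 19 collagen genes above the filter on each of the 4 arrays, with genes sorted by class and mean signal. The dashed line is the filter level of 19.4; CD44v8-10-positive replicate 2 (orange triangles) lies highest, or level with the highest, in 14 of the 19 genes.

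Signals of different probe sets are not comparable as amounts of mRNA, so each gene is compared only between arrays. All 4 arrays were above the filter level in 15 of the 19 genes. Of the remaining 4, Col4a6 and Col14a1 fell short on 1 positive array each, Col23a1 on both negative arrays, and Col6a3 on 1 array of each group. Positive replicate 2 stood somewhat apart: its Pearson correlations with the other arrays, across the 11956 genes tested (which are not independent replicates), were 0.968 to 0.972, and those among the other 3 arrays were 0.980 to 0.985. In total RNA, fewer cells with a transcript and less transcript per cell cannot be told apart.

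Collagen promoters were read from RefSeq's table (GRCm38.p6), in which 32 of the 41 genes had an entry, with 35 windows, and 16 of the 19 tested genes. In the 250 bases before the annotated start, a GC box (GGGCGG on either strand, the core of the binding site of SP1-type factors) was found in 21 of the 35 collagen windows, beside 32.7% of 32851 windows of all genes. The median GC content was 59.2% in the collagen windows and 52.4% in all windows, so the sets also differed in base composition. The motif CCCTNCCCC (CTC box) was in 14.3% of collagen windows and 8.52% of all. Its windows belonged to Col1a2, Col5a3, Col6a2 and Col25a1, and it was in none of the windows of type IV genes. Further shares in collagen and all windows were, for CCAAT, 34.3% and 33.8%, for TATAAA, 11.4% and 12.4%, for TGANTCA (AP-1), 2.86% and 6.75%, and for CACCTG, an E-box of the kind bound by ZEB and Snail proteins, 11.4% and 17.2%. All were searched on both strands. A window counted once for a motif, and matches of different motifs that overlapped were both kept. A match describes letters only.

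The stretches shown are examples, chosen so that each class has one. Col8a1, with the most probe sets above the filter, and Col5a1, with the lowest p of any collagen, are shown up to the outermost annotated start of the gene, and Col4a1 and Col4a2, a pair transcribed away from each other, by the bases between their starts. Col8a1 is on the minus strand at chr16:57754738-57754987 with 4 GC boxes. Col5a1 is on the plus strand at chr2:27886175-27886380 with 2. The starts used for the promoter windows lie at position 11312826 for Col4a1 and 11312805 for Col4a2 on chromosome 8. From one to the other are 22 bases, chr8:11312805-11312826, which belong to both genes. The annotated Col4a1 gene reaches to position 11312889, so the annotated genes overlap further. The 22 bases are shown on the plus strand, which is that of Col4a2, with 1 GC box. Capitals mark GC boxes on either strand.
Col8a1: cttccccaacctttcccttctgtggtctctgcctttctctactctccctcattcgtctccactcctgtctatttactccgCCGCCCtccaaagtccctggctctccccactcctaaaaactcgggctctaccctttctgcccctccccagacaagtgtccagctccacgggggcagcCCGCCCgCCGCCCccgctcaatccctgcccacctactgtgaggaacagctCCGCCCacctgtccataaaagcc
Col5a1: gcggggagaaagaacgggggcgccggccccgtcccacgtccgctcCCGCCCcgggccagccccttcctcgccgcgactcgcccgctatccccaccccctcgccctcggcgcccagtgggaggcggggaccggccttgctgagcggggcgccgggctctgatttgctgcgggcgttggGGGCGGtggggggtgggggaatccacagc
Col4a1-Col4a2: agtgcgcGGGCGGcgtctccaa

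Among the basement membrane collagens, 5 of 8 were above the filter, 3 with log2 differences above 0 and 2 below. Their median was 0.22, or -0.13 without positive replicate 2 and 0.56 without positive replicate 1, and limma called 0 (0 also at an unadjusted p under 0.05). Col4a1, the more widely used of the type IV chains, had normalized signals of 1063 and 1729 in positive against 1034 and 1311 in negative cells. Col4a2, which pairs with it in the common type IV trimer, had 548 and 1072 against 463 and 585. In both genes positive replicate 2 was the highest of the 4 arrays and the remaining positive array lay within the range of the negative ones. The log2 difference was 0.22 ± 0.24 (SE; 95% interval -0.31 to 0.74, limma adjusted p 0.985) for Col4a1 and 0.55 ± 0.29 (-0.07 to 1.17, adjusted p 0.985) for Col4a2. Without positive replicate 2 these became -0.13 and 0.07, and without positive replicate 1 they became 0.56 and 1.01, so a single positive array set their size and, for Col4a1, their sign. The second probe set of Col4a1 above the filter gave 0.25.

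Col4a5, a chain of the type IV network of kidney and some other epithelia, had signals of 198 and 258 in positive against 123 and 231 in negative cells. The groups overlapped. Its log2 difference was 0.39 ± 0.29 and 0.43 by its second probe set, but -0.028 without negative replicate 1. Col4a6, which lies beside Col4a5 on the X chromosome with the opposite orientation, had 39.2 and 15.7 against 66.8 and 44.4, with the groups apart. Its log2 difference was -0.76 ± 0.39 (95% interval -1.60 to 0.09, unadjusted p 0.0739, adjusted p 0.985 by limma). It kept its sign with every array left out in turn, from -1.17 to -0.38. With 1 positive array under the filter level of 19.4, the size of this difference is not exact. Its second probe set, below the filter, gave 0.08. The starts used for the promoter windows of Col4a5 and Col4a6 are 1343 bases apart, and the fitted differences of these genes had opposite signs.

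Col18a1, whose C-terminal fragment is endostatin, had signals of 468 and 609 in positive against 562 and 569 in negative cells. The positive arrays lay on both sides of the negative ones, the log2 difference was -0.08 ± 0.22 (95% interval -0.55 to 0.39), and its second probe set gave 0.16. It was -0.26 without positive replicate 2 and 0.10 without positive replicate 1. The remaining basement membrane genes, Col4a3 and Col4a4, chains of the kidney glomerular network, and Col15a1, were below the filter.

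**Figure D2:**
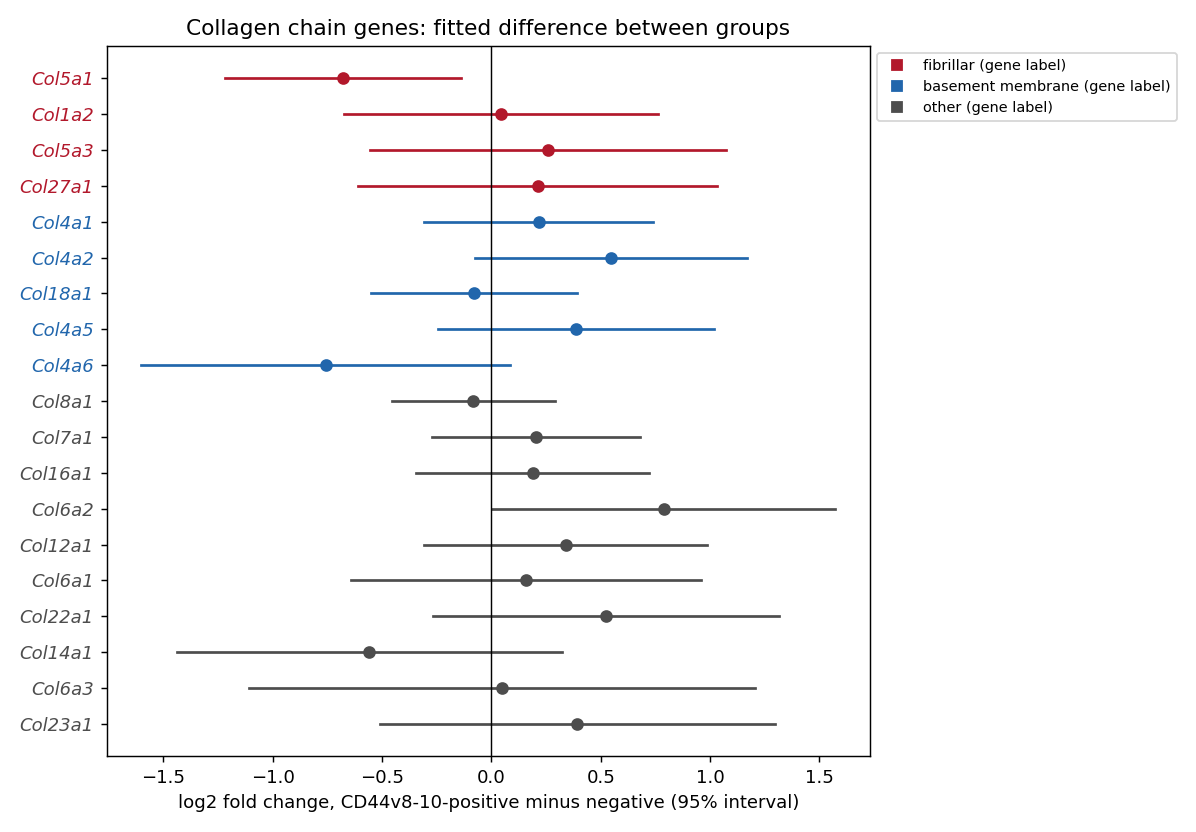
Fitted log2 difference (points) and 95% interval (lines) of the 19 collagen genes above the filter, 2 positive against 2 negative arrays. The intervals of Col5a1, from -1.22 to -0.14, and Col6a2, from 0.0036 to 1.57, leave out 0, and neither gene passed after adjustment over all genes.

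Of the 11 fibrillar genes 4 were above the filter, 3 with log2 differences above 0 and 1 below. Their median of 0.13 did not keep its sign: it was -0.15 without positive replicate 1 and -0.32 without positive replicate 2. In these settings Col27a1 was read from another probe set, at -0.43 without positive replicate 1 and -0.56 without positive replicate 2. The median was -0.045 for means of probe sets and -0.22 over every probe set. With the filter at the 60th percentile it was -0.68, which was the value of Col5a1. Col5a1, the chain of type V collagen that helps start fibrils and limits their width, had signals of 96.5 and 88.1 in positive against 147 and 167 in negative cells. Both positive arrays lay below both negative arrays, and the arrays within a group were closer to each other than to the other group. The log2 difference was -0.68 ± 0.25 (95% interval -1.22 to -0.14, unadjusted p 0.0178, adjusted p 0.985 by limma), a ratio of positive over negative of 0.625. Its second probe set above the filter gave -1.02 ± 0.34 with signals of 72.4 and 32.4 against 102 and 133, tested on its own with an unadjusted p of 0.0127 and an adjusted p of 0.987 by limma. One more probe set, below the filter, gave -0.52. Over the 18 alternative settings the log2 difference of Col5a1 stayed between -0.89 and -0.50. Most of these settings reused the same 4 arrays and are not independent checks. Those that changed the filter, the prior variance or the replicate block could not move this difference. With single arrays left out the difference was -0.77 to -0.58. The direction was thus kept in each setting tried, and the threshold over all genes was reached in none of them.

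Col1a2, a chain of type I collagen, had signals of 42.1 and 48.3 in positive against 38.6 and 48.3 in negative cells, which overlapped. Its log2 difference was 0.04 ± 0.33 (95% interval -0.67 to 0.76). The difference was -0.0010 after median centring of the arrays and -0.082 with no scaling. Its other probe sets, below the filter, gave -0.12 and -0.10. Col5a3, a further type V chain, had 30.2 and 57.5 against 38.4 and 27.7. Its log2 difference of 0.26 ± 0.37 was -0.080 without positive replicate 2. Its second probe set, below the filter, gave -0.25. Col27a1, a fibrillar chain of cartilage, had 28.3 and 33.0 against 23.4 and 25.1. Its groups stood apart with a log2 difference of 0.21 ± 0.38, but its second probe set above the filter gave -0.48, also with the groups apart, so the 2 probe sets pointed in opposite directions.

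The remaining 7 fibrillar genes, among them the main interstitial collagens, were below the filter. Col1a1, which supplies the larger share of type I collagen, had signals of 9.75 and 1.95 in positive against 4.03 and 15.1 in negative cells. Col3a1, the type III chain, had 15.5 and 6.68 against 13.8 and 8.10, and Col5a2, the partner of Col5a1 in type V trimers, had 12.2 and 16.7 against 4.93 and 4.30. All these values lay below the filter level of 19.4. Col2a1, Col11a1 and Col24a1 also had 0 arrays above that level, and Col11a2 had 1, negative replicate 2, at 33.6.

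Of the 22 other collagens 10 were above the filter, 8 with log2 differences above 0 and 2 below, with a median of 0.20 that was 0.039 without positive replicate 2 and 0.51 without positive replicate 1. Col8a1, the type VIII chain known from vessel walls and from the basement membrane of the cornea, had signals of 1806 and 1857 in positive against 1922 and 1961 in negative cells. The groups stood apart by a small step, with a log2 difference of -0.08 ± 0.17 (95% interval -0.46 to 0.29, limma adjusted p 0.990). The other 2 Col8a1 probe sets above the filter also had both positive arrays below both negative ones. One gave -0.53 ± 0.20, with signals of 1159 and 992 against 1429 and 1699 and, tested on its own, an unadjusted p of 0.0217 and an adjusted p of 0.987 by limma; the other gave -0.23 ± 0.23. The 3 probe sets therefore had the same direction and different sizes.

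Col7a1, which forms the anchoring fibrils that hold epithelium to the tissue beneath, had signals of 636 and 804 in positive against 687 and 558 in negative cells. The groups overlapped, and the log2 difference was 0.20 ± 0.22 (95% interval -0.27 to 0.68). It was 0.039 without positive replicate 2 and 0.0027 with no scaling. Col16a1, a collagen that associates with fibrils and with cell adhesions, had 318 and 493 against 334 and 358. Its log2 difference of 0.19 ± 0.24 was -0.11 without positive replicate 2 and -0.026 with no scaling between arrays.

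Type VI collagen, which forms beaded filaments around cells, was represented by 3 tested chains. Col6a2 had signals of 76.6 and 159 in positive against 79.1 and 41.1 in negative cells, so that positive replicate 1 lay between the negative arrays. Its log2 difference was 0.79 ± 0.36 (95% interval 0.0036 to 1.57, unadjusted p 0.0491, adjusted p 0.985 by limma), 0.35 without positive replicate 2 and 1.24 without positive replicate 1. The probe set behind these values is of the type marked as able to cross-hybridise (its identifier ends in _x_at), and the second one, below the filter, gave 0.40. Col6a1 had 46.7 and 51.3 against 27.1 and 62.8, with a log2 difference of 0.16 ± 0.37 that was -0.28 without negative replicate 1 and -0.019 with no scaling. Col6a3 had 5.15 and 53.8 against 23.2 and 19.2: the positive arrays lay on both sides of the negative ones, and its log2 difference of 0.05 ± 0.53 was -0.27 with a pseudocount of 1 and 0.92 without positive replicate 1.

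Col12a1 and Col14a1 belong to the collagens that attach to the surface of fibrils. Col12a1 had signals of 67.2 and 93.6 in positive against 64.7 and 54.7 in negative cells, a log2 difference of 0.34 ± 0.30 that was 0.15 without positive replicate 2. Its second probe set above the filter gave -0.91 ± 0.46, with 29.9 and 3.43 against 35.8 and 44.4, so the 2 probe sets had opposite signs with the groups apart in each. Col14a1 had 12.1 and 23.3 against 38.0 and 28.3, a log2 difference of -0.56 ± 0.40 (95% interval -1.44 to 0.32). The difference was -0.32 without positive replicate 1. Its other probe sets, below the filter, gave 0.15 and -0.03. Col22a1, found at tissue junctions, had 35.5 and 56.6 against 26.0 and 26.95, a log2 difference of 0.53 ± 0.36 (-0.27 to 1.32) with the groups apart, and 0.29 without positive replicate 2. Of its other probe sets, both below the filter, one gave -0.71. Col23a1, a membrane-spanning collagen, had 20.3 and 35.1 against 14.6 and 19.2, a log2 difference of 0.39 ± 0.41; both negative arrays were below the filter level, so its size is not exact, and without positive replicate 2 it was below the filter.

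**Figure D3:**
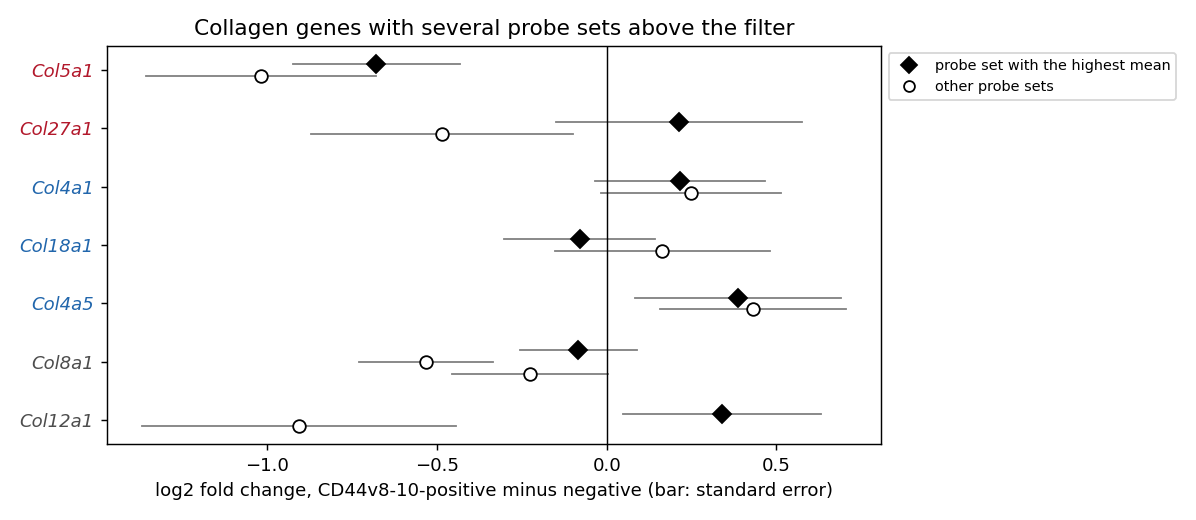
Log2 difference with its standard error for the 7 collagen genes with more than 1 probe set above the filter; filled diamonds are the probe sets with the highest mean. In Col5a1, Col4a1, Col4a5 and Col8a1 all probe sets lie on one side of 0, and in Col27a1, Col18a1 and Col12a1 they lie on both.

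Several probe sets above the filter were available for 7 of the 19 genes, and in 4 of these 7 the probe sets had one sign. Col5a1 and Col8a1 were below 0 on every such probe set, and Col4a1 and Col4a5 above 0. In the remaining 3, Col12a1, Col18a1 and Col27a1, the sign depended on the probe set.

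The collagens varied more between the positive arrays than most genes did. Positive replicate 2 was above positive replicate 1 in 17 of the 19 genes, beside 50.8% of all genes tested, and the median difference between these 2 arrays was 0.40 on the log2 scale over the collagens and 0.0080 over all genes. It was the highest array, ties included, in 14 of the 19, beside 35.0% of all genes. Between the negative arrays, replicate 2 was above replicate 1 in 12 of the 19, with a median difference of 0.03. The median size of the gap between the positive arrays, 0.49, was larger than the median size of the fitted difference between the groups, 0.26; over all genes these were 0.26 and 0.17. By class, the median deviation of positive replicate 2 from the gene means was 0.14 in fibrillar, 0.37 in basement membrane and 0.38 in other collagens. The exceptions by the brightest probe set, with positive replicate 2 below positive replicate 1, were Col5a1 and Col4a6, both with log2 differences below 0. Other probe sets above the filter were divided. Those of Col4a1, Col4a5, Col18a1 and Col27a1 were higher in positive replicate 2. Those of Col5a1, Col8a1 and Col12a1 were lower there, for Col12a1 at 3.43 against 29.9 in positive replicate 1. No test was made of this pattern, which was noticed in the data.

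With positive replicate 2 left out, 7 of the 18 collagens tested lay above 0 and 11 below, while 53.1% of all genes lay above 0. With positive replicate 1 left out, 16 of 21 lay above 0, beside 55.0% of all genes. The filter acts on the mean of the arrays kept, so the collagens tested depend on the array left out. Col9a1, at 51.3 in positive replicate 2 and below the filter with all arrays, was tested without positive replicate 1. Col6a3 and Col23a1 fell below the filter without positive replicate 2. No collagen was called by limma in either setting. The lean of the collagens towards the positive cells was present with positive replicate 2 as the only positive array and not with replicate 1.

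**Figure D4:**
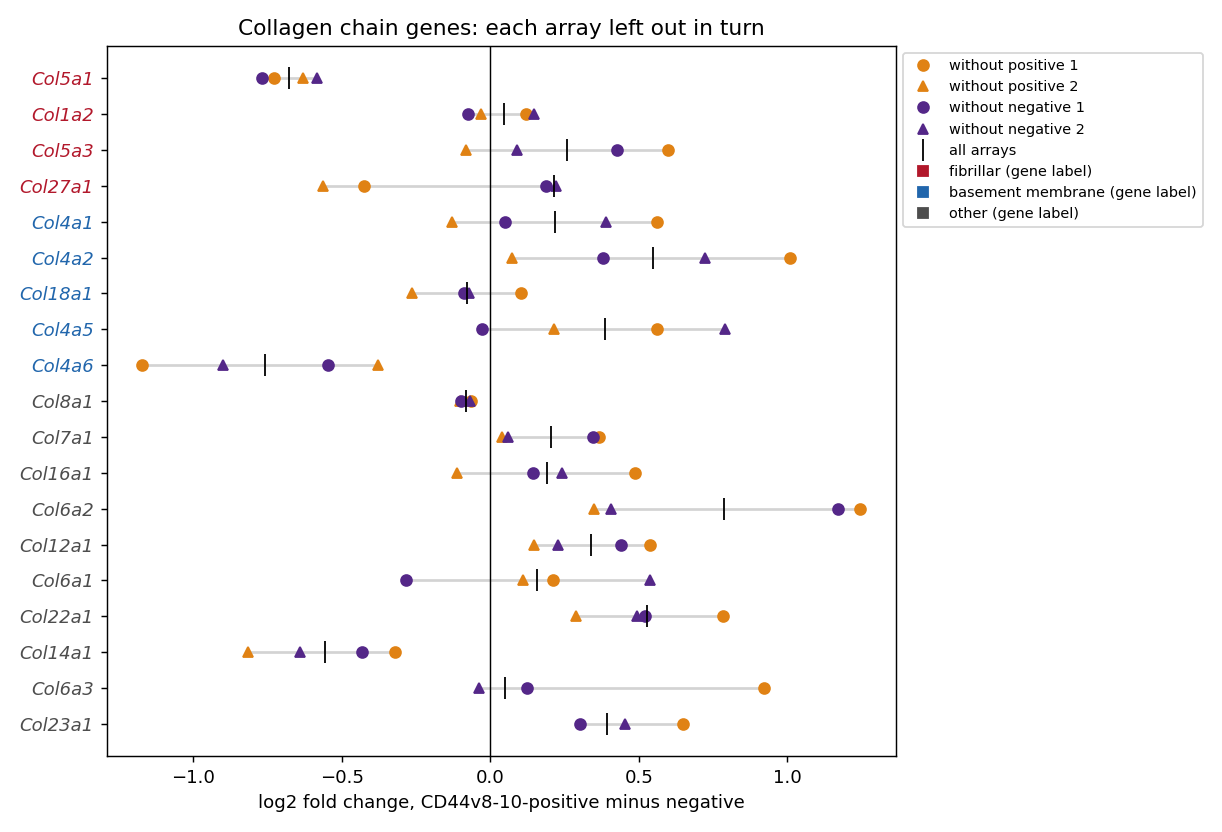
Log2 difference of the 19 collagen genes with all arrays (vertical ticks) and with each array left out in turn (symbols); a symbol is missing where the gene fell below the filter. Col5a1, Col4a6, Col14a1 and Col8a1 stay below 0 throughout, while Col4a1 runs from -0.13 to 0.56 and Col27a1 from -0.56 to 0.22, the latter because another probe set became the brightest.

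The 22 collagens below the filter had normalized signals between 0.70 and 51.3 on single arrays, and 14 of them had no array above the filter level: Col1a1, Col2a1, Col3a1, Col5a2, Col11a1, Col24a1, Col4a4, Col6a4, Col6a5, Col8a2, Col9a2, Col9a3, Col25a1 and Col26a1. The remaining 8 exceeded it on 1 or 2 arrays. Col13a1, a membrane-spanning collagen of cell junctions, did so on both positive arrays, at 26.5 and 31.5, against 2.23 and 15.3. Col19a1 reached 23.2 in positive replicate 2 and 30.8 in negative replicate 1, and Col20a1 reached 26.3 and 21.8 in the negative samples. Col9a1, a cartilage collagen, reached 51.3 in positive replicate 2 only, and the same array gave Col15a1 its highest value, 24.8. Col10a1 and Col4a3 reached 21.6 and 21.8 in positive replicate 1. With no filter, when all 41 were tested, 3 had an unadjusted p under 0.05 by limma, beside 4.44% of all genes, and 0 were called: Col13a1 was higher in the positive cells, and Col26a1 and Col5a1 were lower.

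No enzyme or chaperone that hydroxylates or folds collagen chains in the cell was called. Beside this count and those of the related lists below, 0.0753% of all genes tested were called. Of the 16 tested, 6 had log2 differences above 0 and 10 below. Their median was -0.11, and limma had 0 also at an unadjusted p under 0.05. Ppib, a prolyl isomerase that acts on collagen, had signals of 9467 and 7553 in positive against 10277 and 8220 in negative cells, a log2 difference of -0.12 that was 0.012 with a common trimmed mean for all arrays. P4hb, a subunit of prolyl hydroxylase, had 3425 and 4612 against 3603 and 3383, a log2 difference of 0.19 that was -0.025 without positive replicate 2. For both the groups overlapped.

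Outside the cell, procollagens are trimmed and cross-linked. Of 7 such genes tested, limma called 0, and 2 were lower in the positive cells at an unadjusted p under 0.05, beside 1.76% of all genes. Loxl3, a lysyl oxidase that cross-links collagen, had 44.3 and 53.2 against 120 and 147, a log2 difference of -1.21 ± 0.28 (limma adjusted p 0.363, and 0.0494 after median centring). Pcolce, which speeds removal of the C-propeptide, had 355 and 273 against 485 and 856, a log2 difference of -1.01 ± 0.27 (limma adjusted p 0.609) that was -0.62 without negative replicate 2. In both, the groups stood apart. The 2 brightest of the list, the related enhancer Pcolce2 (log2 difference 0.19) and the C-proteinase Bmp1 (-0.07), overlapped between groups; Pcolce2 was -0.0049 with no scaling.

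Among 4 tested genes of proteins that bind fibrils, limma called 0. Sparc, a collagen-binding secreted glycoprotein, had 973 and 1041 in positive against 1388 and 1735 in negative cells, a log2 difference of -0.62 ± 0.20 (unadjusted p 0.00819, adjusted p 0.919 by limma). Fn1, fibronectin, on which collagen fibrils are laid down, had 4351 and 5789 against 3166 and 3008, at 0.70 ± 0.17 (unadjusted p 0.00141, adjusted p 0.420 by limma), or 0.42 as the mean of its probe sets. The groups stood apart in both genes, in opposite directions. The small proteoglycans Dcn, Bgn and Lum were below the filter.

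Of 6 collagen receptors tested limma called 0, with a median log2 difference of 0.27. Itgb1, the beta subunit of the collagen-binding integrins, had 0.27 ± 0.17, or 0.086 without positive replicate 2. Ddr2, a receptor kinase activated by fibrillar collagen, had -0.10 ± 0.21, which was 0.084 without negative replicate 2. Of 6 proteases that cut collagen or matrix, limma called 0. Adamts1, a matrix protease, had 1546 and 1563 in positive against 1000 and 813 in negative cells, a log2 difference of 0.78 ± 0.19 (unadjusted p 0.00175, adjusted p 0.476 by limma), with the groups apart. Mmp14, a membrane-bound collagenase, had 0.03 ± 0.22, which was -0.10 after median centring and -0.18 with no scaling.

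The laminins and other partners of type IV collagen held 1 called gene, beside 0.0753% of all genes tested. Of 10 tested, 8 had log2 differences above 0 and 2 below, with a median of 0.18, beside 54.3% of all genes above 0. Lama3, a laminin chain of epithelial basement membranes, had signals of 257 and 265 in positive against 84.6 and 60.3 in negative cells, and rose by 1.66 ± 0.25 (limma adjusted p 0.0302, but from 0.0621 to 0.272 with single arrays left out, so that each array was needed for the call). The call was kept in 9 of the 18 alternative settings. Agrn, agrin, a heparan sulphate proteoglycan, had 703 and 1041 against 487 and 588, a log2 difference of 0.66 ± 0.24 (unadjusted p 0.0155, adjusted p 0.985 by limma) that was 0.38 without positive replicate 2 and 0.93 without positive replicate 1. Lamb1, the brightest of the list, had -0.22 ± 0.18, and Lamb3, a partner of Lama3, 0.47 ± 0.24, or 0.16 without positive replicate 2 and 0.77 without positive replicate 1. Beside Lama3, the type IV chains had values from -0.76 for Col4a6 to 0.55 for Col4a2; a difference between Lama3 and the collagens was not tested.

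**Figure D5:**
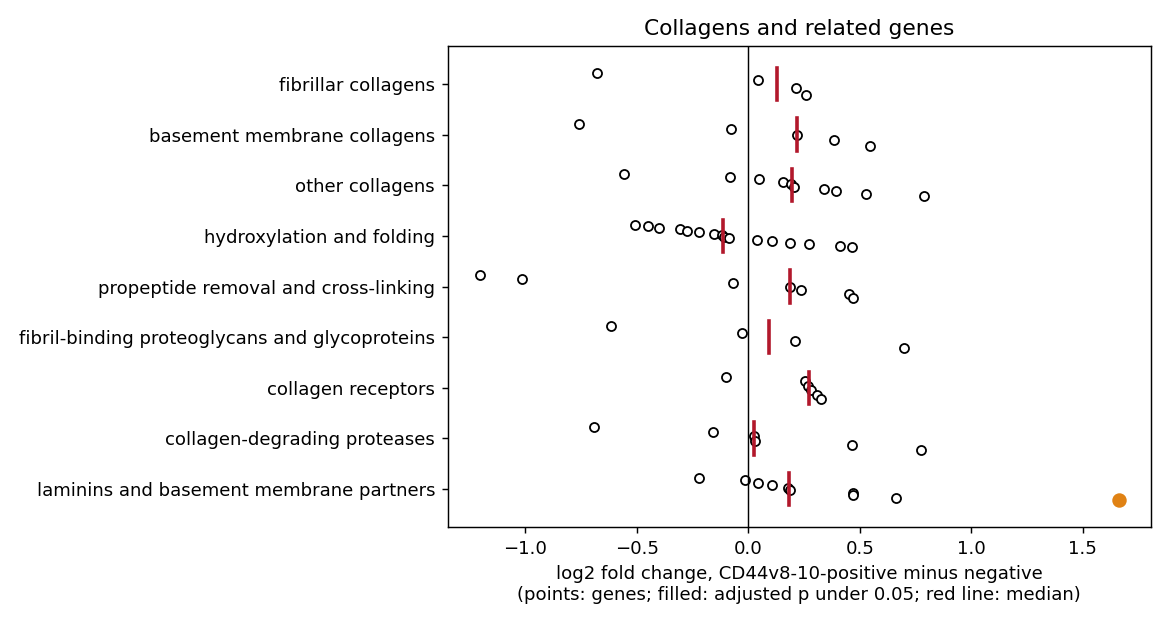
Log2 differences of the tested collagens by class and of the genes for collagen processing, binding and breakdown; red lines are medians. The filled point, Lama3 at 1.66, is the only gene shown with an adjusted p under 0.05, and the medians run from -0.11 for hydroxylation and folding to 0.27 for receptors.

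4T1 is a carcinoma line, and markers of epithelium were present in both groups. All 8 epithelial markers were above the filter, which acts on the mean over the arrays. Krt5 was below the filter level on both negative arrays, with signals of 22.7 and 57.4 in positive against 6.05 and 18.4 in negative cells. Its groups stood apart, with a log2 difference of 0.95 (limma adjusted p 0.985). Summed signals of all 8 were 34290 and 37748 in positive against 27083 and 32954 in negative cells. Such sums mostly follow the brightest members, here Krt18, Krt8 and Krt7, at 11806, 8220 and 6866 in positive replicate 1. Of the 8 markers, limma called Krt14 (log2 difference 1.97, adjusted p 0.00547) and Epcam (1.34, adjusted p 0.0118) higher, beside 0.0753% of all genes tested. Without positive replicate 2 neither was called (adjusted p 0.0838 and 0.258 by limma), and without positive replicate 1 Epcam was not (0.0842). Krt7 (log2 difference 0.49) and Krt19 (0.57) were higher at an unadjusted p under 0.05 only, and the keratins Krt18 and Krt8 had 0.08 and 0.06, with -0.065 and -0.030 without negative replicate 1.

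Fibroblasts are the main producers of interstitial collagen, so their markers were set beside the collagens. Of 10 fibroblast markers other than collagens, 7, among them Pdgfrb, Thy1, Dcn and Lum, were below the filter, and the summed signal of all 10 was 207 and 148 in positive against 244 and 176 in negative cells. It was lowest in positive replicate 2, as were Pdgfra, Fap, Lum and Fbln1, while Pdgfrb, Dcn, Pdpn and Dpt were highest on that array. Pdgfra, a growth factor receptor of mesenchymal cells, had 47.0 and 33.6 against 108 and 76.6, a log2 difference of -0.94 ± 0.31 (unadjusted p 0.0111, adjusted p 0.980 by limma). This is the brightest of its 3 probe sets above the filter, and the mean of the 3 gave -0.16. Pdpn had 0.37 ± 0.39. The 6 markers of mural cells summed to 230 and 171 against 193 and 115, with Acta2 at 0.18 (-0.022 without negative replicate 2) and Des at 0.55 (-0.087 without that array). Rgs5, the remaining mural marker above the filter, had -0.39 with the groups apart and both positive arrays below the filter level. Of 6 endothelial markers, 0 were above the filter, and their sums were 88.4 and 94.3 against 45.9 and 49.2. The 6 macrophage markers summed to 447 and 569 in positive against 367 and 347 in negative cells. The sum was highest in positive replicate 2, with Cd14 at 0.37 and Csf1r at 0.51 (0.22 without that array). Cd14, Csf1r, Adgre1 and Ptprc were highest on that array, while Cd68 and Itgam were highest in positive replicate 1. The pan-leukocyte gene Ptprc was below the filter level on all arrays. The part of other cell types in the collagen values was not tested.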

How the data were processed

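The deposited values were linear intensities, 1 per probe set and array, from 0.1 to 22695.6 over 45101 probe sets. The submitters' processing notes name GCOS without a role, and the sources used here do not state the summary method, the background correction or the scaling. Trimmed means (2% at each end) differed between arrays, at 236, 219, 195 and 344, so the arrays were quantile normalized, then transformed as log2(value + 16). Without the 64 control probe sets, those with a mean below the 40th percentile (normalized signal 19.4) were left out. By the platform annotation 34945 probe sets had 1 symbol, 932 several and 9160 none, and the last 2 kinds were not used. The collagens had 81 probe sets, 27 of them above the filter. The probe set with the highest mean stood for each gene, leaving 11956 genes. limma (version 3.58.1, in R 4.3.3) fitted the 2 groups without covariates, with moderated variances that follow the mean signal; p-values are two-sided, and the median standard error was 0.24. The method was tested on simulated data. The number of arrays limits the precision. Values on this scale understate differences of dim genes.

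All tested collagens are named. Each array's value was to be given where the unadjusted p was under 0.05, the groups were apart by a log2 value of at least 0.5, or the gene was among the 4 brightest of its class. Array values of Col12a1, Col6a1, Col6a3, Col23a1, Krt5 and the dim fibrillar genes were added after they were seen. So were single values of Rgs5, Cdh5, Kdr and Col9a1, and Bgn, Adgre1, Cd68 and Itgam by name. From each related list the genes at an unadjusted p under 0.05 and the 2 brightest are named. Members and lists were chosen with earlier results of these data known. Alternatives were the scaling, pseudocount, filter, choice of probe set, prior variance, replicate block and each array left out.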

Additional observations from a re-analysis of the deposited data

How the results depend on the processing

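limma called 0 collagens in each of the 18 alternative settings. Of 329 collagen values under these settings 19 changed sign, in 10 of the 19 genes. Changes of the filter, the prior variance and the replicate block cannot move the log2 difference of a given probe set. Part of the 329 values were thus fixed at the reported value, and 19 of 329 understates how often signs changed where they could. Genes called over all genes, 9 as reported, were 25 after median centring (20 higher and 5 lower), 3 with no scaling, 3 with no filter, 2 with no variance trend, 18 with the replicate block, and 6 to 16 with single arrays left out. Collagens at an unadjusted p under 0.05, 2 as reported, were 0 with no scaling and 1 each with a common trimmed mean, a pseudocount of 1, the filter at the 60th percentile, no _x_at or _s_at probe sets, and no trend; they were 0 to 7 with single arrays left out. Members called in the related lists, 3 as reported, were 0 with no scaling, with no filter and with no trend, and 0 to 2 with single arrays left out. With the replicate number as a block, 4 collagens had an unadjusted p under 0.05 (Col4a2, Col4a6, Col5a1 and Col6a2, beside 6.43% of all genes; lowest adjusted p 0.526 by limma); same-numbered arrays deviated together with r = 0.12 over genes, and with only 2 numbers this does not show that they pair the samples. The median of the fibrillar genes, 0.13, was -0.68 with the filter at the 60th percentile, which was the value of Col5a1. It was -0.045 for means of probe sets, -0.22 over every probe set, and -0.32 to 0.12 with single arrays left out. With single arrays left out, that of the basement membrane genes was -0.13 to 0.56 and that of the others 0.039 to 0.51. The causes of these shifts were not tested.

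Single genes changed sign as follows. After median centring Col1a2 had -0.0010 and Mmp14 -0.10. With no scaling Col16a1 had -0.026, Col1a2 -0.082, Col6a1 -0.019, Mmp14 -0.18 and Pcolce2 -0.0049. With a common trimmed mean Ppib had 0.012, and with a pseudocount of 1 Col6a3 had -0.27. For means of probe sets Col12a1 had -0.28, Col18a1 0.042 and Col27a1 -0.14. With single arrays left out the ranges that crossed 0 were -0.13 to 0.56 for Col4a1, -0.028 to 0.79 for Col4a5, -0.26 to 0.10 for Col18a1, -0.075 to 0.15 for Col1a2, -0.080 to 0.60 for Col5a3, -0.56 to 0.22 for Col27a1, -0.11 to 0.49 for Col16a1, -0.28 to 0.54 for Col6a1 and -0.038 to 0.92 for Col6a3. Outside the collagens they were -0.30 to 0.16 for Bmp1, -0.28 to 0.084 for Ddr2, -0.23 to 0.27 for Mmp14, -0.025 to 0.39 for P4hb, -0.30 to 0.043 for Ppib, -0.014 to 0.39 for Pcolce2, -0.022 to 0.39 for Acta2, -0.087 to 1.24 for Des, -0.065 to 0.25 for Krt18 and -0.030 to 0.16 for Krt8. With an array left out the lone array of its group is assumed to vary like the other group. Signals near the filter level limit what can be said of Col4a6, Col14a1, Col6a3 and Col23a1.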
